A study of Mus musculus with 4 samples.

Results

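Cholesterol genes were followed through the CD45+ cells of mouse melanomas as a module of 32 genes, chosen by name for their part in making, taking up, storing and exporting cholesterol, out of 32285 genes counted. They comprised 17 enzymes of synthesis (6 of the mevalonate arm and 11 of the sterol arm), 5 regulators of the SREBP transcription factors, 5 genes of uptake, storage and traffic, and 5 genes of the LXR efflux branch. The choice rested on the genes' known roles and not on a measured threshold, but earlier results of these data were known when it was made.

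Cells make cholesterol from acetyl-CoA through mevalonate, farnesyl diphosphate, squalene and lanosterol. When sterol in the endoplasmic reticulum is low, the escort protein Scap carries SREBP2 to the Golgi, where it is cut and released to switch on the genes of synthesis, and when sterol is high Insig1 and Insig2 hold it back. Sterols oxidised from cholesterol activate the nuclear receptors LXRα and LXRβ (genes Nr1h3 and Nr1h2), which switch on the export pumps Abca1 and Abcg1 and the ubiquitin ligase Mylip, which curbs lipoprotein uptake. Macrophages, which ingest cells and lipoproteins, are a textbook setting for this exchange.

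The transcripts of single CD45+ cells were sequenced from tumours of YUMM1.7 cells, a mouse melanoma line that here expresses ovalbumin (OVA). All tumours grew in Rag2-/- mice, which make no T or B cells, and all received OVA-specific OT-1 CD8+ T cells on day 7 and were isolated on day 10, 72 h later. NTT tumours came from a line naive to targeted therapy (clone 3A6) and RTT tumours from a line resistant to the BRAF inhibitor dabrafenib (clone 2B12), kept in the drug in culture. RTT_ROSA26 tumours came from a resistant line with a control guide against the Rosa26 locus, and RTT_PTGS12KO tumours from a resistant line in which the cancer cells had lost Ptgs1 and Ptgs2, the cyclooxygenase genes that begin prostaglandin synthesis. Each group was 1 sample from 1 line or clone. The labels give 1 tumour per condition, whereas the study's figure legends speak of pooled tumours, which could not be reconciled here.

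The 4 samples held between 6836 and 10296 cells, with a median of 7293 UMIs (unique transcript tags) per cell in NTT and 12219 to 13280 in the resistant samples. Levels are given as CPM, UMIs per 1e6 UMIs of a sum of cells, and log2 ratios are of these CPM. Where 4 values are listed, they follow the sample order NTT, RTT, RTT_ROSA26, RTT_PTGS12KO. Since each group is 1 sample, differences have no replicates behind them and were not tested, and every interval is an exact 95% interval that covers counting error only. Below, the resistance contrast is NTT against RTT, the knockout contrast is RTT_PTGS12KO against RTT_ROSA26, and the yardstick is RTT_ROSA26 against RTT, a pair of resistant tumours in which neither lost Ptgs1 or Ptgs2. RTT enters both the resistance contrast and the yardstick, and RTT_ROSA26 both the knockout contrast and the yardstick. Macrophages here are the authors' clusters named TAM or Ctsk and monocytes those named Mono. Macrophages numbered 308 cells in NTT against 5207 to 6734 in the resistant samples, and monocytes numbered only 144 in RTT_ROSA26, 86 of them in the cluster Infl_Mono. Over all cells Ptgs1 stood at 6.20, 68.1, 55.4 and 14.9 CPM and Ptgs2 at 562, 349, 231 and 349 CPM, values from immune cells that cannot check an edit made in cancer cells. The samples shared 3 droplet loads, in which no cell barcode occurred in more than 1 sample, and 98 barcodes recurred between loads.

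The promoters of 4 members are shown because they stand for the behaviours described below: Hmgcs1, the enzyme at the head of the mevalonate arm, Mvd, a later enzyme of the same arm, Ebp, an enzyme that varied little between samples, and Abca1, the efflux pump. Each is the stretch of 250 bases before the RefSeq start on GRCm38.p6, written 5′ to 3′ on the gene's strand, and none overlaps an exon of the GENCODE annotation. Capitals mark the CCAAT box (CCAAT, or ATTGG on the other strand), the sterol regulatory element searched as TCACNCCAC and the E-box CACGTG.
Hmgcs1 (HMG-CoA synthase, chr13:119690101-119690350, plus strand): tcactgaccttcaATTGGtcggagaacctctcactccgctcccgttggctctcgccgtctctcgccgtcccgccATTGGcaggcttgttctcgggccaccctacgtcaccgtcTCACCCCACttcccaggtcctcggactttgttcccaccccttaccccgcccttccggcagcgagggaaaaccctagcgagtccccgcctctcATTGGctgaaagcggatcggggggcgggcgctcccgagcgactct
Mvd (mevalonate diphosphate decarboxylase, chr8:122443423-122443672, minus strand): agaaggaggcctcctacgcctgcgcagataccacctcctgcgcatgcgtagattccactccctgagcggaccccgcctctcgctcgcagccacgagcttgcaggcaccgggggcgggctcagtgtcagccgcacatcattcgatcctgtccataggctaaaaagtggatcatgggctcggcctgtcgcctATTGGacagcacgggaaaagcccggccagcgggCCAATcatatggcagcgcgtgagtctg
Ebp (sterol isomerase, chrX:8193513-8193762, minus strand): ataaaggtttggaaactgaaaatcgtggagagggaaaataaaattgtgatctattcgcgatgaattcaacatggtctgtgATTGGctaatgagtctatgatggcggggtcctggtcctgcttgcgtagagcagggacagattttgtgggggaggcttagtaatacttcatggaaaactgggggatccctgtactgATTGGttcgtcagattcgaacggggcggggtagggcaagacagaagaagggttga
Abca1 (cholesterol efflux pump, chr4:53159896-53160145, minus strand): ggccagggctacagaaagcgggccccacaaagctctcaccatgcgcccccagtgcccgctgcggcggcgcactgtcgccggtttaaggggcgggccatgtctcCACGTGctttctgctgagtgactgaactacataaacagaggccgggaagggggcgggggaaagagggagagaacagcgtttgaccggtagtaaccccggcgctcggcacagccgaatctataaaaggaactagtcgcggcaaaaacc

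RefSeq windows were found for 26 of the 32 members and for 14 of the 17 enzymes. A CCAAT box on either strand lay in the windows of all 14 of these enzymes and of 8 of the 12 other members, against 37.5% of all 27025 genes with a window. The sterol regulatory element as spelled lay in 1 member, Hmgcs1, 137 bases before the start, and in 1.22% of all genes. The E-box lay in 3 of 14 enzymes against 6.86% of all genes. The LXR element DR4 was searched in only 1 exact spelling, 16 bases long with 4 free bases at its centre. That spelling lay in 0 members and in 4 of all genes. Variant spellings of DR4 were not searched, so the count of 0 does not show that Abca1 or any other member lacks an LXR element. These are matches of letters only, on both strands, and a missing match says only that these letters are not in the window.

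Across cell types the synthesis enzymes were highest outside the macrophages. Of the authors' 17 types, 14 had at least 50 cells in some sample, giving 42 combinations of type and sample. The summed level of the 17 enzymes was 638 CPM (577 to 703) in NTT and 930.2 CPM (862 to 1002) in RTT_PTGS12KO in DC3, the type marked by Ccr7, 485 to 874 CPM in cDC2 of 3 samples and 455 CPM in cDC2 of RTT_ROSA26. Myofibrobl held 389 CPM (376 to 402) in RTT and 1085 CPM (1044 to 1128) in RTT_ROSA26, the widest gap within a type. The macrophage and monocyte types lay between 227 and 571 CPM and neutrophils between 203 and 266 CPM. DC3 and cDC2 were thus above every macrophage cluster of the same sample. The macrophage clusters TAM_C1q and TAM_Spp1 were closer, at 370.0 (365 to 375) and 397 (389 to 405) CPM in RTT, with intervals apart, and with overlapping intervals in RTT_ROSA26 (262 and 263 CPM) and RTT_PTGS12KO (319.7 and 325 CPM).

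**Figure D1:**
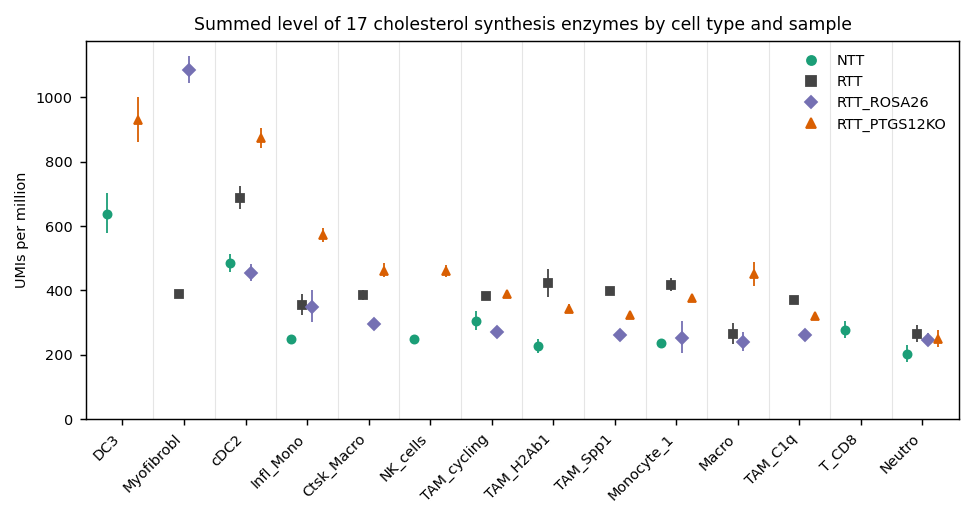
Summed level of the 17 cholesterol synthesis enzymes (y axis, CPM) in each cell type with at least 50 cells in a sample (x axis, ordered by mean); 1 point per sample with its 95% counting interval, colours and symbols for the 4 samples. Points run from 203 in neutrophils of NTT to 1085 in Myofibrobl of RTT_ROSA26, and in most types RTT and RTT_PTGS12KO stand above NTT and RTT_ROSA26.

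Single enzymes divided this picture. By mean level, 11 of the 17 were highest in Myofibrobl, 3 in DC3 and 1 each in NK cells, TAM_cycling and Macro. These means cover different samples, only RTT and RTT_ROSA26 for Myofibrobl and only NTT and RTT_PTGS12KO for DC3. Within RTT not all of the 11 were highest in Myofibrobl. Idi1 stood there at 39.3 CPM against 49.3 CPM in cDC2, and Cyp51 at 34.9 against 52.6 CPM. Pmvk, the phosphomevalonate kinase, reached 328 and 419 CPM in DC3 and 158 to 270 CPM in cDC2, but 32.7 and 47.9 CPM in NK cells. Fdps, farnesyl diphosphate synthase, reached 41.2 and 183 CPM in Myofibrobl of RTT and RTT_ROSA26, and Msmo1, the methylsterol oxidase, 77.0 and 199 CPM there. Ebp stood at 67.0 to 106 CPM in the monocyte, macrophage, Macro and cDC2 clusters, at 47.8 to 62.1 CPM in neutrophils and at 49.5 and 58.4 CPM in DC3, and was lowest in Myofibrobl (21.3 and 30.3 CPM). Sc5d, a sterol desaturase, was highest in NK cells, at 21.1 and 34.5 CPM. Myofibrobl carried the stromal markers at 1055 and 1161 CPM, and the melanoma markers Mlana, Pmel, Dct and Tyrp1 summed to at most 0.114 CPM in it.

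Most traffic and efflux genes followed another order, and by mean level 8 of the 10 peaked in a macrophage cluster or in Macro. Abca1 was highest in TAM_C1q (318 to 504 CPM) and low in NK cells (13.3 and 14.2 CPM) and CD8 T cells (7.05 CPM). Npc1, which moves cholesterol out of lysosomes, was highest in TAM_C1q (66.9 to 96.5 CPM), and so was Soat1, which esterifies cholesterol for storage (161 to 220 CPM). Npc2, the soluble partner of Npc1, was the most abundant member and peaked in Ctsk_Macro (2084 to 3935 CPM). Lipa, the lysosomal acid lipase, Abcg1 and Mylip had their highest means in Macro, which had too few cells in NTT, and Nr1h3 in TAM_H2Ab1 (30.0 to 45.1 CPM). In RTT_ROSA26 Mylip was lower in Macro (48.8 CPM) than in TAM_C1q (65.6 CPM). Abcg1 reached 137 CPM in Infl_Mono of NTT, against 105 to 133 CPM in Macro. The exceptions were Stard4, a sterol carrier, highest in NK cells (23.4 and 39.98 CPM), and Nr1h2, highest in DC3 (25.3 and 33.5 CPM). The samples shared loads, and the complement genes C1qa, C1qb and C1qc, which NK cells should lack, stood in NK cells at 5.25% of their macrophage level in NTT and 8.87% in RTT_PTGS12KO. The parts of free RNA and of doublets in that signal were not tested, and Abca1 in NK cells is not read as expression. Npc1 stood there at 92.2% and 113% of its macrophage level. Neutrophils held 3090 to 6502 CPM of the C1q genes, beside Abca1 at 101 to 319 CPM, and the part of macrophage RNA in that level was not tested. The types were clustered by the authors on the same expression values, so these differences between types are a description.

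**Figure D2:**
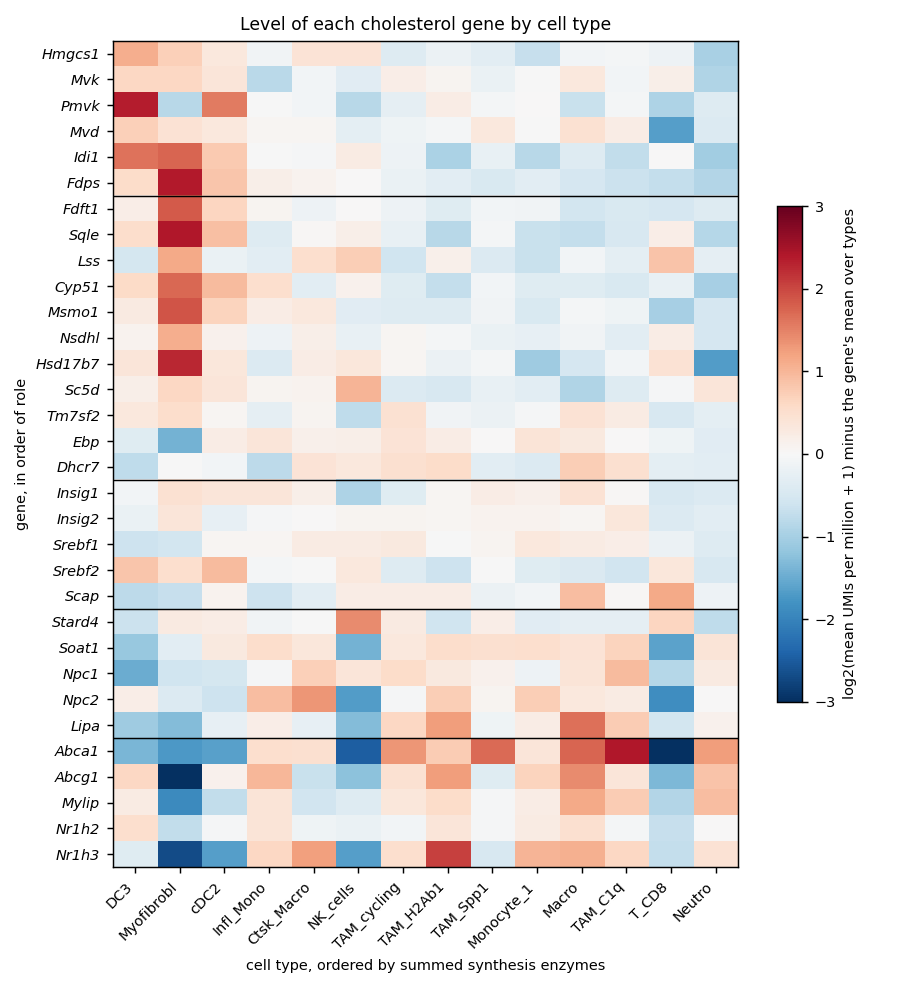
Level of each of the 32 members (rows, in order of role, black lines between roles) in 14 cell types (columns, ordered by summed enzymes), as log2 of mean CPM + 1 over samples minus the gene's mean over types; red is above and blue below. Most enzymes are red in the 3 columns at the left, DC3, Myofibrobl and cDC2, and all 5 genes of the efflux branch, the lowest rows, are blue in Myofibrobl and red in Macro.

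The first question was whether synthesis differed between macrophages of naive and resistant tumours. The summed enzymes stood at 269.9 (254 to 286), 380.02 (376 to 384), 269 (266 to 273) and 359.7 (356 to 364) CPM. RTT and RTT_PTGS12KO were high and NTT and RTT_ROSA26 low, with no overlap of the counting intervals between high and low samples. The log2 ratio was -0.49 (-0.58 to -0.41) in the resistance contrast, 0.42 (0.39 to 0.44) in the knockout contrast and -0.50 (-0.52 to -0.47) in the yardstick. The yardstick was thus as large as either contrast of interest, so neither can be set apart from the difference between these resistant tumours. That single pair also differs in the control guide, so it does not measure the spread between like tumours. Each sample's 3 loads stayed within 264 to 279, 376 to 385, 263 to 273 and 349 to 374 CPM in the same order, which is technical spread.

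Counted gene by gene, 7 enzymes passed a mean of 10 CPM in macrophages. Of these, 6 were lower and 1 higher in NTT than in RTT (50.4% and 49.6% of all 7061 genes that passed), 7 were higher and 0 lower in RTT_PTGS12KO than in RTT_ROSA26 (34.8% and 65.2%), and 6 were lower and 1 higher in RTT_ROSA26 than in RTT (38.2% and 61.8%). The median log2 ratio (of CPM + 1) of the 7 was -0.75, 0.54 and -0.69 in that order, beside -0.003, -0.08 and 0.06 for all genes. Few passed 2-fold. Among the 21 members that passed 10 CPM, 2 were at least 2-fold higher and 1 at least 2-fold lower in NTT than in RTT, where 4.74% and 3.44% of all genes were, and these 3 belong to the LXR branch. In the knockout contrast, 1 member, Cyp51, was at least 2-fold higher (2 members with TMM factors or with no minimum) and 0 lower, where 2.52% and 0.878% of all genes were, and in the yardstick 0 were higher and 0 lower, where 0.524% and 0.779% of all genes were (0.382% and 0.963% with TMM factors, another scaling of the libraries).

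Within the mevalonate arm Hmgcs1, which joins acetyl groups into HMG-CoA (chromosome 13, 119690379 to 119708260 of GRCm38), stood at 17.7, 33.9, 22.5 and 29.4 CPM. Pmvk (chromosome 3, 89454541 to 89469013), the most abundant enzyme of the arm, stood at 46.5, 91.2, 50.9 and 63.9 CPM. Idi1, which isomerises isopentenyl diphosphate, stood at 13.8, 23.9, 14.2 and 24.1 CPM. In each, RTT and RTT_PTGS12KO stood above NTT and RTT_ROSA26, at yardstick log2 ratios of -0.59, -0.84 and -0.76. Fdps stood at 10.8, 16.1, 10.6 and 21.2 CPM, so that RTT_PTGS12KO was highest and its log2 ratio to RTT_ROSA26 was 1.01 (0.90 to 1.12), or 0.94 on the CPM + 1 scale. Mvd stood at 6.40, 12.6, 8.63 and 12.2 CPM, under the minimum in the mean. Mvk, the mevalonate kinase, was level, at 10.1, 9.88, 9.70 and 9.24 CPM.

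The sterol arm showed the same order in most of its members. Cyp51, the lanosterol demethylase (chromosome 5, 4081145 to 4104746), stood at 10.3, 19.4, 10.9 and 24.2 CPM. Its log2 ratio was 1.15 (1.05 to 1.26) in the knockout contrast, which fell under 2-fold on a scale of CPM + 10 (0.71), and -0.83 (-0.94 to -0.72) in the yardstick. Msmo1, further down the arm, stood at 25.6, 39.9, 24.4 and 35.8 CPM. Sqle, the squalene epoxidase, stood at 2.46, 7.48, 3.65 and 9.99 CPM, the widest relative range of the arm but under the minimum. Fdft1, the squalene synthase, stood at 6.40, 9.85, 6.24 and 10.3 CPM and Sc5d at 8.12, 12.6, 8.55 and 10.7 CPM, again with RTT and RTT_PTGS12KO above the other samples. Lss, the lanosterol synthase (0.738 to 2.52 CPM), Hsd17b7 (2.95 to 6.45 CPM) and Tm7sf2 (4.67 to 6.72 CPM), both reductases of the arm, were scarce. Nsdhl, a dehydrogenase of sterol demethylation, did not follow that order, at 11.1, 8.64, 7.61 and 7.55 CPM, nor did Dhcr7, the reductase that forms cholesterol, at 5.17, 3.78, 4.91 and 5.52 CPM. Ebp, the most abundant enzyme of the arm, was level at 87.1, 76.03, 76.2 and 81.8 CPM and made up 20.01% to 32.3% of the sum. Pmvk and Ebp together made up 40.5% to 49.5% of it, and the other 15 enzymes summed to 136, 213, 142 and 214 CPM. The split into high and low samples thus did not rest on these abundant genes, but the order within each pair changed without them.

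In monocytes the summed enzymes stood at 239 (235 to 243), 402 (384 to 420), 308 (275 to 345) and 400.1 (394 to 406) CPM. NTT was lowest, and RTT_ROSA26, with 309 enzyme UMIs in all, lay between. The log2 ratio was -0.75 (-0.82 to -0.68) in the resistance contrast, 0.38 (0.21 to 0.54) in the knockout contrast and -0.38 (-0.56 to -0.21) in the yardstick. The split by arm was uneven. The mevalonate arm stood at 96.8, 206, 106 and 180.4 CPM, with a yardstick of -0.96 (-1.27 to -0.67), whereas the sterol arm stood at 142, 195, 203 and 219.7 CPM, with a yardstick of 0.05 (-0.17 to 0.27) that was 0.37 (0.04 to 0.68) within Infl_Mono and -0.29 (-0.67 to 0.07) within Monocyte_1. Infl_Mono held 86 of 144 monocytes in RTT_ROSA26 and 138 of 522 in RTT. With equal weights for the clusters Monocyte_1 and Infl_Mono, the log2 ratio of RTT_PTGS12KO against RTT_ROSA26 was 0.66. Of the 9 enzymes that passed 10 CPM, 9 were lower and 0 higher in NTT than in RTT (44.6% and 55.4% of all 6438 genes), 6 were higher and 3 lower in RTT_PTGS12KO than in RTT_ROSA26 (50.4% and 49.6%) and 5 were lower and 4 higher in RTT_ROSA26 than in RTT (49.5% and 50.5%), with medians of -0.81, 0.56 and -0.26 beside 0.03, 0.003 and 0.005 for all genes.

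Past 2-fold in monocytes were, in the resistance contrast, 4 members lower and 1 higher of 22 (1.32% and 1.63% of all genes), in the yardstick 1 lower and 0 higher (1.86% and 1.43%), and in the knockout contrast 0 in either direction (1.82% higher and 1.63% lower). The 4 lower fell to 1 on a scale of CPM + 10 (0.792% of all genes), and the 0 higher in the knockout contrast became 3 with TMM factors (2.27%) and 2 with no minimum (4.11%). Pmvk stood at 50.5, 126, 43.9 and 72.3 CPM, so that RTT stood apart from both NTT (-1.32, -1.45 to -1.19) and RTT_ROSA26 (-1.52, -1.999 to -1.08). The RTT monocytes also carried Ifitm1, a gene high in cDC2, at 5039 CPM against 623 to 1142 CPM in the other samples, but the cDC2 markers Cd209a and Flt3 were at most 0.408 and 0.204 CPM there, against 35.7 and 18.8 CPM in the cDC2 of the same sample. The C1q genes of monocytes stood at 3714, 5957, 2864 and 4006 CPM, highest in RTT, and the 6 monocyte markers of Monocyte_1 were lowest there, at 2594 CPM against 4605 to 6630 CPM. The part of these in the Pmvk level was not tested. Without Pmvk the log2 ratio of the summed enzymes was -0.55 in the resistance contrast and -0.06 in the yardstick. Idi1 stood at 7.39, 17.1, 17.96 and 26.5 CPM and Fdps at 8.75, 19.4, 14.0 and 28.1 CPM, with log2 ratios of -1.21 (-1.56 to -0.85) and -1.15 (-1.47 to -0.81) in the resistance contrast. In both, NTT was lowest and RTT_PTGS12KO highest.

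The other enzymes of monocytes were under 2-fold on the CPM + 1 scale in the 3 contrasts or under the minimum. Hmgcs1 stood at 14.4, 26.1, 14.97 and 30.8 CPM, and Msmo1 at 20.4, 36.1, 29.9 and 44.5 CPM. Cyp51 stood at 9.11, 19.0, 29.9 and 27.2 CPM, so that RTT_ROSA26 lay above RTT here and below it in macrophages. Mvd stood at 8.40, 11.8, 6.99 and 14.3 CPM and Sc5d at 6.57, 9.79, 17.96 and 11.7 CPM. Ebp was level again, at 82.2, 94.01, 96.8 and 91.0 CPM.

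**Figure D3:**
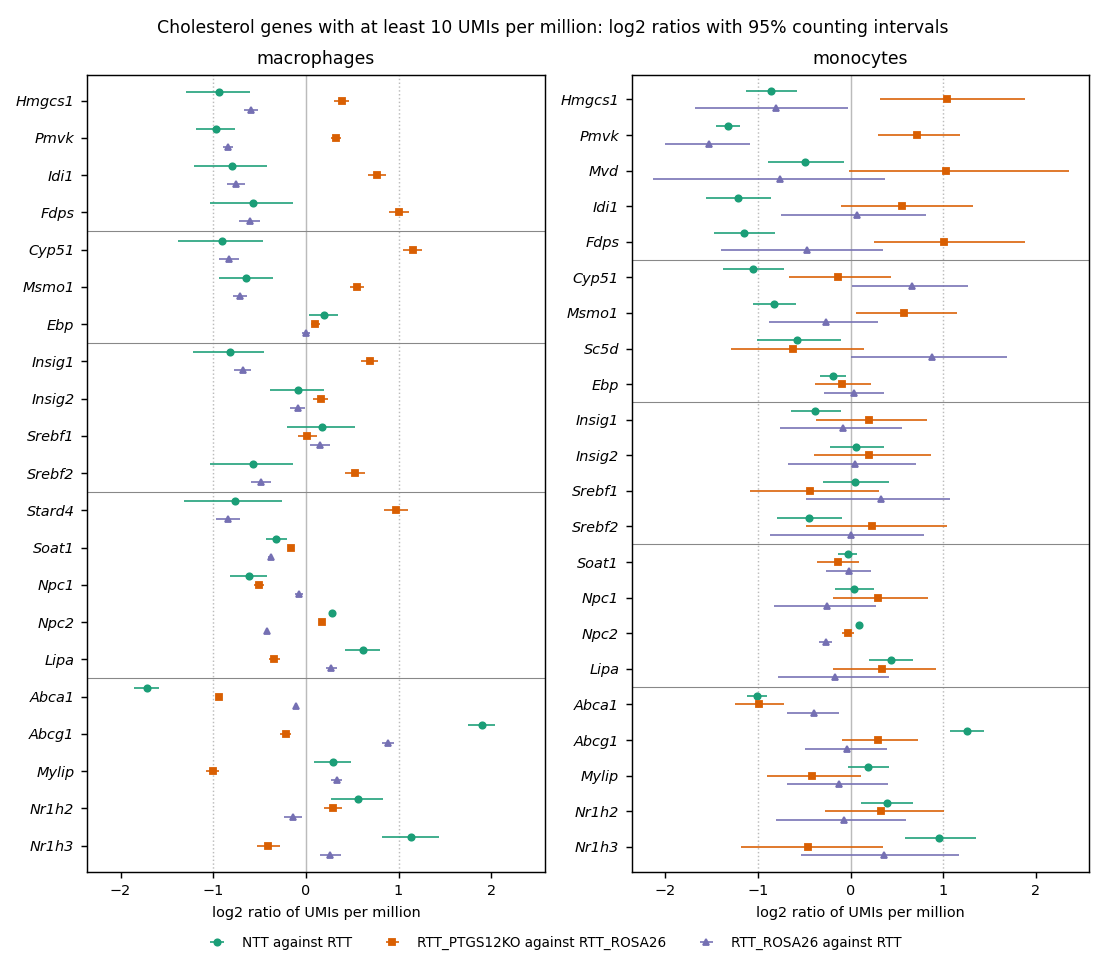
Log2 ratio of CPM (x axis) of each member with 10 CPM or more (y axis, in order of role) in macrophages (left) and monocytes (right) for the 3 contrasts; points are ratios, bars 95% counting intervals, dotted lines a 2-fold difference. In macrophages the enzymes other than Ebp lie below 0 for NTT against RTT and for RTT_ROSA26 against RTT and above 0 for RTT_PTGS12KO against RTT_ROSA26, and Abca1 and Abcg1 part to -1.72 and 1.90 for NTT against RTT.

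Type by type, the summed enzymes were lower in NTT than in RTT in 6 of 6 types with 50 cells in both samples, with log2 ratios from -0.89 in TAM_H2Ab1 to -0.32 in TAM_cycling. They were higher in RTT_PTGS12KO than in RTT_ROSA26 in 9 of 9 types, 8 of them with intervals above 0, from 0.01 (-0.18 to 0.21) in neutrophils to 0.94 (0.84 to 1.04) in cDC2. In the yardstick they were lower in 9 of 10 types, 6 of them with intervals below 0, with a lowest value of -0.73 in Monocyte_1. The intervals of Infl_Mono (-0.27 to 0.22), neutrophils (-0.29 to 0.08) and Macro (-0.40 to 0.10) spanned 0, and Myofibrobl went the other way, by 1.48 (1.41 to 1.55). In the knockout contrast Infl_Mono stood at 0.71 (0.50 to 0.92) and Macro at 0.91 (0.70 to 1.13), but neutrophils at 0.01. All types of a sample share its library, so these types are not replicates of a condition. The cycling cluster TAM_cycling held 307 (279 to 337), 382 (373 to 391), 272 (267 to 277) and 389 (383 to 395) CPM, against 227 CPM in TAM_H2Ab1 of NTT and 370.0, 262 and 319.7 CPM in TAM_C1q of the resistant samples. Proliferation genes in macrophages stood at 480, 428, 771 and 833 CPM, an order that differs from that of the enzymes.

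Among the SREBP genes, Srebf2 and Insig1 ran with the enzymes and Srebf1 and Insig2 did not. Srebf2, which encodes SREBP2, stood in macrophages at 10.8, 16.1, 11.5 and 16.6 CPM. Insig1, itself a target of SREBP, stood at 14.8, 26.05, 16.2 and 26.2 CPM. Both showed RTT and RTT_PTGS12KO high, and for Insig1 the log2 ratios were -0.82 (-1.21 to -0.45), 0.69 (0.60 to 0.78) and -0.68 (-0.77 to -0.59) in the order of the contrasts. Srebf1, whose main product SREBP1c drives fatty acid synthesis, was level at 16.2, 14.4, 16.0 and 16.2 CPM, as was Insig2 at 25.1, 26.7, 25.2 and 28.1 CPM. Scap stood at 9.10, 5.66, 6.43 and 5.54 CPM. In monocytes Srebf2 stood at 11.7, 15.9, 16.0 and 18.7 CPM and Insig1 at 20.2, 26.3, 24.9 and 28.6 CPM, for Insig1 a narrower range than in macrophages.

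Over the 42 combinations of type and sample, the rank correlation with the summed enzymes was 0.79 for Srebf2, 0.55 for Insig1 and 0.51 for Stard4, but -0.20 for Srebf1, -0.01 for Insig2 and -0.20 for Scap. Among the enzymes, each set against the sum of the other 16, Fdps ran closest (0.89), then Idi1 (0.85), and Ebp (-0.01) and Dhcr7 (0.01) not at all. Of the 5 genes of the efflux branch only Mylip is given here, and it ran opposite (-0.65). The proliferation genes gave 0.21 and the median UMI count per cell 0.18. Within the 24 combinations of monocytes and macrophages the values were 0.68 for Srebf2, 0.62 for Insig1, 0.72 for Stard4 and -0.61 for Mylip. These points share libraries and loads, so the correlations describe them and carry no p-value.

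**Figure D4:**
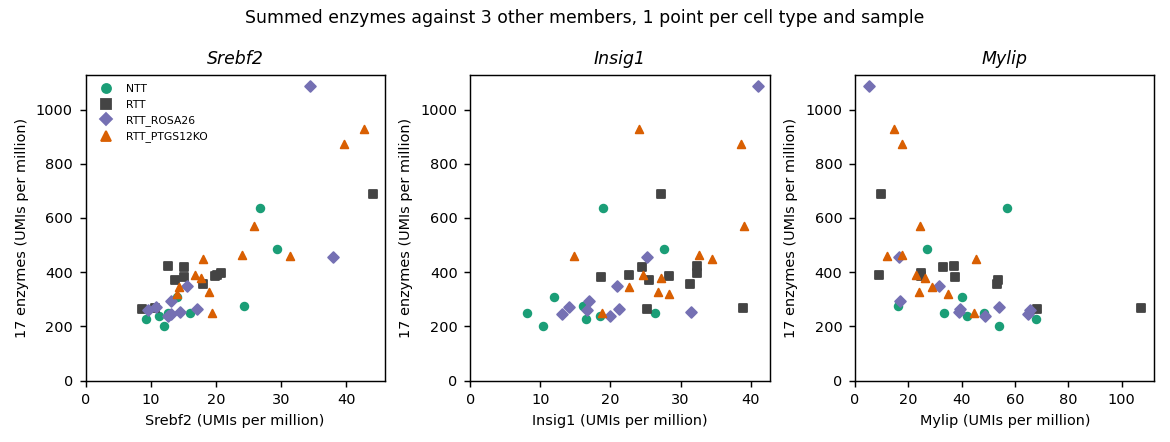
Summed enzymes (y axis) against Srebf2, Insig1 and Mylip (x axes), all in CPM, with 1 point for each of 42 combinations of cell type and sample, coloured by sample. The cloud rises with Srebf2 (rank correlation 0.79), rises more loosely with Insig1 (0.55) and falls with Mylip (-0.65).

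Of the genes of uptake, storage and traffic, Stard4, a sterol carrier that SREBP2 controls, went with the enzymes. It stood in macrophages at 7.87, 13.3, 7.44 and 14.6 CPM, a log2 ratio of 0.97 (0.84 to 1.11) in the knockout contrast. The lysosomal and storage genes did not. Npc1 stood at 52.7, 80.5, 76.5 and 53.9 CPM, so that RTT and RTT_ROSA26 were high, and its log2 ratios were -0.61 (-0.82 to -0.42), -0.51 (-0.56 to -0.45) and -0.07 (-0.12 to -0.03). Npc2 stood at 2024, 1670.5, 1251 and 1409 CPM and Lipa at 61.5, 40.1, 48.5 and 38.4 CPM, both highest in NTT. Soat1 stood at 162, 202, 155 and 139 CPM, highest in RTT. All 5 genes passed 10 CPM in macrophages and 4, without Stard4, in monocytes, and 0 were past 2-fold in any contrast. In monocytes Npc1 (33.9 to 41.7 CPM) and Soat1 (152 to 170.1 CPM) were level, Npc2 stood at 1917 to 2507 CPM, Lipa at 28.9 to 43.8 CPM and Stard4 at 4.36 to 13.7 CPM.

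The efflux genes parted from each other. In macrophages Abca1 (chromosome 4, 53030787 to 53159895) stood at 118 (108 to 129), 388 (384 to 392), 361 (357 to 365) and 189 (186 to 192) CPM. RTT and RTT_ROSA26 were high and NTT and RTT_PTGS12KO low, and the yardstick of -0.10 (-0.13 to -0.08), or -0.20 with TMM factors, was smaller than the log2 ratios of -1.72 (-1.85 to -1.59) in the resistance contrast and -0.93 (-0.96 to -0.91) in the knockout contrast. The class differed in make-up: TAM_H2Ab1 made up 192 of the 308 macrophages of NTT, whereas TAM_C1q, where Abca1 was highest, made up 3412 of the 6734 of RTT. Within TAM_H2Ab1 the log2 ratio of Abca1 in the resistance contrast was only -0.36 (-0.67 to -0.05), and within TAM_cycling -1.85 (-2.15 to -1.57). The monocyte markers stood at 1193 CPM in NTT against 446 in RTT within TAM_H2Ab1 and at 2555 against 223 CPM within TAM_cycling, where the macrophage markers stood at 8271 against 11843 CPM, and their part in these values was not tested. Abcg1 (chromosome 17, 31057675 to 31117988), the pump that loads HDL, stood at 117, 31.5, 58.4 and 50.2 CPM. It was highest in NTT, by 1.90 (1.75 to 2.04) against RTT for the class, 1.06 (0.67 to 1.47) within TAM_H2Ab1 and 1.35 (1.06 to 1.62) within TAM_cycling, but it also differed by 0.89 (0.83 to 0.95) in the yardstick and by only -0.22 (-0.27 to -0.16) in the knockout contrast. Mylip stood at 51.2, 41.8, 52.8 and 26.3 CPM, lowest in RTT_PTGS12KO. Its log2 ratio was 0.29 (0.08 to 0.49) in the resistance contrast, -1.01 (-1.08 to -0.94) in the knockout contrast and 0.33 (0.28 to 0.39) in the yardstick, the second just under 2-fold on the CPM + 1 scale. The sum of these 3 target genes was 287, 462, 472 and 266 CPM, mostly Abca1 in the 3 resistant samples but not in NTT, and its log2 ratios were -0.69 (-0.77 to -0.60), -0.83 (-0.85 to -0.81) and 0.03 (0.01 to 0.05). The last of these ratios changed sign with TMM factors and without TAM_cycling. With equal weights for TAM_H2Ab1 and TAM_cycling, the clusters with 50 cells in both samples, the first was -0.14, from 0.36 (0.15 to 0.58) in the one and -0.73 (-0.91 to -0.56) in the other.

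In monocytes the same genes ran at lower Abca1. Abca1 stood at 79.6, 160.3, 122 and 61.4 CPM, which is -1.01 (-1.12 to -0.90) in the resistance contrast, -0.99 (-1.25 to -0.71) in the knockout contrast and -0.40 (-0.68 to -0.12) in the yardstick as log2 ratios. The C1q genes and the monocyte markers given above also set the RTT monocytes apart, and their part in the Abca1 level was not tested. Abcg1 stood at 127, 53.2, 51.9 and 63.9 CPM, higher in NTT than in RTT by 1.25 (1.07 to 1.44). Mylip stood at 43.5, 38.1, 34.9 and 26.2 CPM. NTT monocytes thus held less Abca1 and more Abcg1 than those of RTT, as NTT macrophages did, and the sum of the 3 genes was 249.9, 252, 209 and 152 CPM, at -0.01 (-0.09 to 0.08) in the resistance contrast. That value joins clusters that went opposite ways, -0.60 (-0.74 to -0.46) in Infl_Mono and 0.27 (0.16 to 0.38) in Monocyte_1.

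In single types, Abca1 was lower in NTT than in RTT in 6 of 6 types (-1.88 to -0.36) and lower in RTT_PTGS12KO than in RTT_ROSA26 in 9 of 9 (-3.25 to -0.53), with the lowest value in Macro, where it stood at 462 CPM in RTT_ROSA26 and 48.5 CPM in RTT_PTGS12KO. In the yardstick it was lower in 7 and higher in 3 of 10 types (-1.14 to 0.55). The C1q genes of Macro fell with it, from 10934 to 5323 CPM, and their part in that value was not tested. Abcg1 was higher in NTT than in RTT in 6 of 6 types (0.73 to 1.52), and between RTT_PTGS12KO and RTT_ROSA26 its direction varied, being higher in the former in 6 of 9 types. Within TAM_C1q, where both resistant controls had over 2000 cells, Abca1 stood at 504 CPM in RTT, 477 in RTT_ROSA26 and 318 in RTT_PTGS12KO, and Mylip at 53.7, 65.6 and 34.8 CPM. Interferon genes moved with these results in macrophages. The 8 genes of the interferon list summed to 2363, 291, 189 and 1643 CPM, high in the samples in which Abca1 was low, and over the 24 combinations of monocytes and macrophages their rank correlation was -0.61 with Abca1 and 0.61 with Abcg1. In monocytes they summed to 4133, 3566, 5454 and 3333 CPM, where RTT_PTGS12KO was lowest in both. Within Infl_Mono they were level, at 7110 to 7466 CPM, while Abca1 there stood at 66.6, 245, 111 and 38.9 CPM. The C1q genes of Infl_Mono moved with Abca1 in part, at 3316, 6061, 2604 and 1584 CPM, and their part in its level was not tested.

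**Figure D5:**
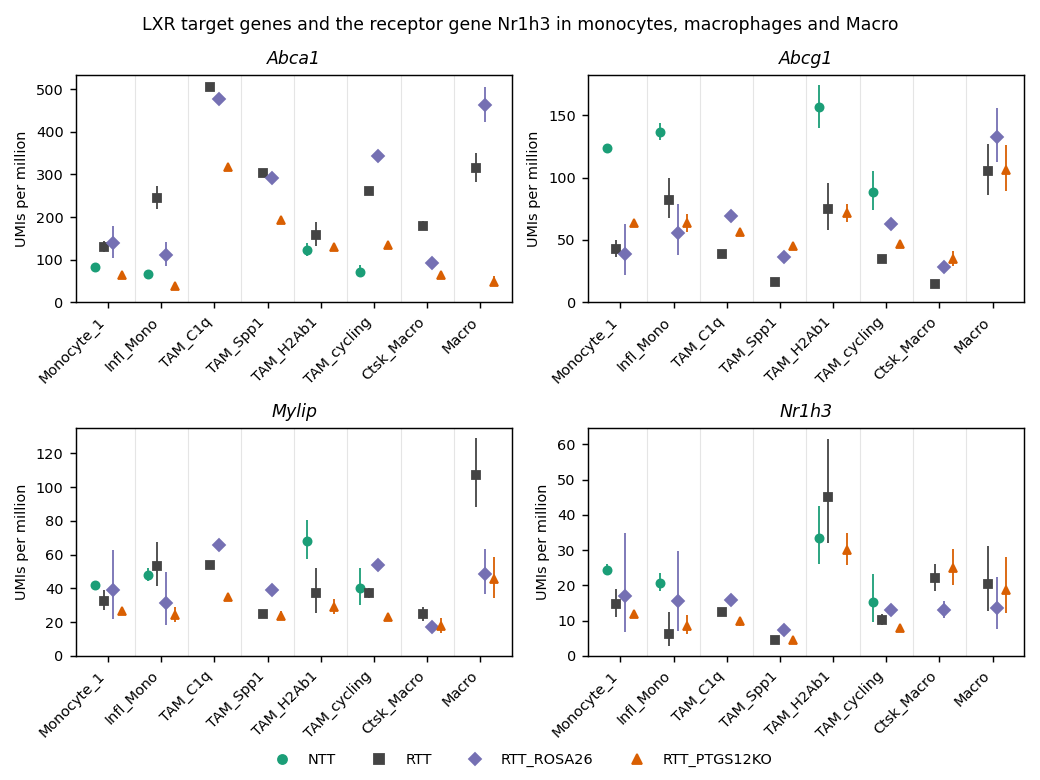
Levels of Abca1, Abcg1, Mylip and Nr1h3 (y axes, CPM, scales differ) in monocyte, macrophage and Macro clusters with at least 50 cells in a sample (x axes), 1 point per sample with its 95% counting interval. In each cluster Abca1 of RTT_PTGS12KO lies below that of RTT_ROSA26 where both are shown, and Abcg1 of NTT lies above that of RTT.

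The receptors were modest in level. Nr1h3 (chromosome 2, 91184061 to 91202834) stood in macrophages at 24.1, 11.0, 13.2 and 9.97 CPM, a log2 ratio of 1.13 (0.82 to 1.43) in the resistance contrast, which fell under 2-fold on a scale of CPM + 10 (0.70). Nr1h2 stood at 27.6, 18.7, 17.02 and 20.8 CPM. Both were thus highest in NTT, where Abca1 was lowest. TAM_H2Ab1, the main cluster of NTT and the one with the highest Nr1h3, held only 63 macrophages in RTT, and within it Nr1h3 stood at 33.5 CPM (26.1 to 42.4) in NTT and 45.1 CPM (32.1 to 61.7) in RTT, so the higher level of the class did not recur inside that cluster. Within TAM_cycling it stood at 15.4 CPM (9.67 to 23.4) in NTT, from 22 UMIs, and 10.2 CPM (8.80 to 11.8) in RTT. In monocytes Nr1h3 stood at 24.1, 12.4, 16.0 and 11.6 CPM and Nr1h2 at 30.2, 23.04, 22.0 and 27.5 CPM.

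The neighbouring lipid genes were counted from lists set beside the module. Of 10 genes of fatty acid synthesis, which SREBP1 controls, 4 passed 10 CPM in macrophages and 3 in monocytes, and 0 of them were past 2-fold in any contrast (shares of all genes as given for the members), with medians for macrophages of -0.07, 0.13 and -0.05. Acly, which supplies acetyl-CoA, stood in macrophages at 53.4, 62.0, 53.1 and 62.9 CPM and the desaturase Scd2 at 31.5, 29.8, 49.0 and 58.3 CPM. Of 13 genes of lipid uptake and handling, 12 passed in each class. In macrophages 2 were higher and 1 lower past 2-fold in NTT than in RTT (4.74% and 3.44% of all genes), 1 higher and 1 lower in RTT_PTGS12KO than in RTT_ROSA26 (2.52% and 0.878%), and 1 higher in RTT_ROSA26 than in RTT (0.524%). The lower one in NTT was Lrp1, a receptor for lipoproteins and other ligands, at 134 CPM against 322, while the scavenger receptor Msr1 (464 to 636 CPM) and the lipid droplet protein Plin2 (263 to 365 CPM) were under 2-fold. The others were picked out after their values were seen: Ch25h, which makes an oxysterol, at 109, 26.8, 86.4 and 93.4 CPM, the fatty acid receptor Cd36 at 24.4, 8.79, 13.5 and 43.5 CPM, and Gramd1b, a sterol transporter of membrane contacts, at 11.6, 20.8, 26.7 and 12.1 CPM. In monocytes Cd36, at 22.5, 11.0, 25.9 and 62.8 CPM, was past 2-fold higher in the knockout contrast (1.82% of all genes) and in the yardstick (1.43%).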

How the data were processed

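The 4 samples of CD45+ cells were tagged with multiplexing oligos and run together in 3 droplet loads with 3' chemistry. The authors deposited 1 matrix of UMI counts, made with cellranger multi against mm10, and a table that gives each of 33368 cells its sample and cell type, named in Seurat 4.3.0 after Harmony integration. Every cell meets the study's filters (more than 1000 genes, less than 15% of UMIs mitochondrial, less than 40% ribosomal). No doublet caller was run here, and doublets within a sample remain possible.

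UMIs were summed per sample and type or class and scaled to CPM (numpy 2.4.6, pandas 2.3.3, scipy 1.17.1, Python 3.11.15, matplotlib 3.10.9). Intervals are exact Poisson for levels and exact conditional (Clopper-Pearson) for ratios. Past 2-fold means a log2 ratio of CPM + 1 of at least 1 or at most -1, counted over genes whose mean across samples is 10 CPM or more. Types needed 50 cells in a sample. All 32 members were named, and of the other lists the 4 genes with the most UMIs. Positions come from GENCODE (GRCm38) and promoters from RefSeq (GRCm38.p6). The steps were tested on simulated data. The members and lists were chosen with earlier results of these data known. Alternatives were TMM scaling (edgeR 4.0.16, R 4.3.3), a stricter filter (1500 genes, 10% mitochondrial), removal of the 5% of cells with the most UMIs, equal weights of clusters, macrophages without TAM_cycling, CPM + 10 and no minimum. Sums without Pmvk, or without Pmvk and Ebp, were added after seeing the data.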

Additional observations from a re-analysis of the deposited data

Results flagged for a closer look

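Between macrophages and monocytes, 2 of the members with 10 CPM or more in both classes differed in direction within the same contrast, each with counting intervals on opposite sides of 0. The difference between the classes was not tested, since each group has 1 sample. For RTT_ROSA26 against RTT, the log2 ratio of Cyp51 was -0.83 (-0.94 to -0.72) in macrophages and 0.66 (0.01 to 1.27) in monocytes, the latter from the 144 monocytes of RTT_ROSA26. Within the monocyte clusters the interval spanned 0, at 0.50 (-0.37 to 1.33) in Infl_Mono and 0.40 (-0.80 to 1.42) in Monocyte_1, and the samples differed in their shares of these clusters. For NTT against RTT, the log2 ratio of Ebp was 0.20 (0.04 to 0.35) in macrophages and -0.19 (-0.33 to -0.05) in monocytes. Sc5d, with a mean under 10 CPM in macrophages, also parted for RTT_ROSA26 against RTT, at -0.56 (-0.69 to -0.44) in macrophages and 0.88 (0.0066 to 1.68) in monocytes.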

How the results depend on the processing

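All values in this paragraph are log2 ratios unless called counts, and the cause of each change was not tested. Of the summed ratios under alternatives, 37 moved by less than their counting interval, 27 moved by more and 2 reversed. With TMM factors the enzymes of macrophages stood at 0.52 in the knockout contrast and -0.59 in the yardstick, and the LXR sum at -0.73 and, reversed, -0.065. With equal weights over clusters, the enzymes of macrophages stood at -0.59 (the resistance contrast) and 0.45 (the knockout contrast), those of monocytes at -0.67 and 0.66, the LXR sum of macrophages at -0.14, -0.67 and 0.081 (the yardstick), and that of monocytes at -0.23 in the resistance contrast and -0.50 in the yardstick. Without TAM_cycling, the macrophage enzymes stood at -0.60 and 0.33, and the LXR sum at -0.56, -0.60 and, reversed, -0.030. Without the 5% of cells with the most UMIs, the LXR sum stood at -0.79 (the knockout contrast) and 0.011 (the yardstick) in macrophages and 0.16 (the resistance contrast) in monocytes. Without Pmvk, a choice made after seeing the data like the next, the enzymes stood at -0.37 (the resistance contrast) and -0.40 (the yardstick) in macrophages and -0.55 and -0.058 in monocytes. Without Pmvk and Ebp they stood at -0.64, 0.59 and -0.58 in macrophages and -0.11 in the yardstick in monocytes.

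Counts of members past 2-fold changed as follows. The share of all genes past 2-fold under the same setting stands in brackets. With CPM + 10, the count for the resistance contrast was 1 higher in macrophages (3.61%) and 1 lower in monocytes (0.792%), and that for the knockout contrast was 0 higher in macrophages (1.61%). With no minimum, 2 were lower in the resistance contrast (2.53%) and 2 higher in the knockout contrast (1.23%) in macrophages, and in monocytes 2 were higher in the knockout contrast (4.11%) and 3 lower in the yardstick (5.38%). With TMM factors, the knockout contrast had 2 higher in macrophages (2.85%) and 3 higher in monocytes (2.27%). The share of all genes past 2-fold moved by over 1.5 times in 20 of 36 cases, none of them with TMM factors. No paired analysis was possible because the groups hold a single sample, and no replicate could be left out. Of the monocytes of RTT_ROSA26 there were 144, so members near 10 CPM rest on about 10 UMIs there.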
